A study of Homo sapiens with 4 samples.

Results

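The pyruvate dehydrogenase kinases PDK1, PDK2, PDK3 and PDK4 were examined for binding of PPARG, the ligand-activated nuclear receptor, in 2 human lung adenocarcinoma cell lines. All 4 genes were taken as a family, with their spans on genome build hg19, rounded to 1 kb. A ChIP-seq peak was counted as near a gene when its midpoint lay inside the span or within 100 kb of either end. This gave 11 peaks of 3644 over both lists. The NCI-H1993 list of 1419 peaks held 2 of them and the NCI-H2347 list of 2225 peaks held 9. PDK1, PDK2 and PDK4 had at least 1 peak in at least 1 line, and PDK3 had 0 in both lines.

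The ChIP samples were NCI-H1993 and NCI-H2347 cells, 1 library each, grown in serum-containing medium. Both lines had received a BAC, a bacterial artificial chromosome, with PPARG fused to the LAP tag, which contains EGFP. The tagged protein was precipitated with a goat antibody against EGFP, so the peaks report PPARG made from the transgene, and the labels do not say whether each line is a single clone. The labels give no drug treatment, and do not explain the letters PIO that both lists carry in their names. The input libraries, 1 per line, were not analysed here. No replicate of either ChIP was available, so no value below has a replicate check and no test between the lines was made.

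Pyruvate dehydrogenase kinases sit in the mitochondrial matrix and phosphorylate the E1 alpha subunit of the pyruvate dehydrogenase complex. Phosphorylation switches the complex off, so that less pyruvate enters the citric acid cycle as acetyl-CoA. PPARG acts as a heterodimer with a retinoid X receptor, classically on direct repeats of a short half-site that lie at promoters or at distant enhancers. PDK4 is the kinase induced by fasting and fatty acids, and it is an established target gene of the PPAR family in several tissues. PDK2 is the most widely expressed member, PDK1 is induced by hypoxia-inducible factor, and PDK3 has a narrower tissue range.

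PDK4 had 1 peak within 100 kb in each line, at the same place, and in each line it was the highest-scoring peak near any PDK gene. The site lay 12 kb upstream of the start of PDK4. PDK4 lies on the minus strand of chromosome 7, between 95212 kb and 95226 kb. In NCI-H1993 the peak was at chr7:95237562-95238949, was 1388 bp wide and had a score of 610. In NCI-H2347 it was at chr7:95237551-95238709, was 1159 bp wide and had a score of 410. The scores are values the authors deposited, and they rank peaks within 1 list only.

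Within NCI-H1993 the PDK4 peak ranked 3 of 1419 peaks by score and first of the 103 peaks on chromosome 7. Within NCI-H2347 it ranked 20 of 2225 and 2 of the 111 peaks on chromosome 7. The median scores of the lists were 69.8 for NCI-H1993 and 77.1 for NCI-H2347, so the PDK4 peak lay far above the middle of both. It was also among the wider peaks, with a width reached by 5.00% of the NCI-H1993 list and 9.66% of the NCI-H2347 list. In NCI-H1993 the peak ranked 4 had a score of 375, so the PDK4 peak and the 2 above it stood apart from the rest, as the plot of score against rank shows.

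**Figure D1:**
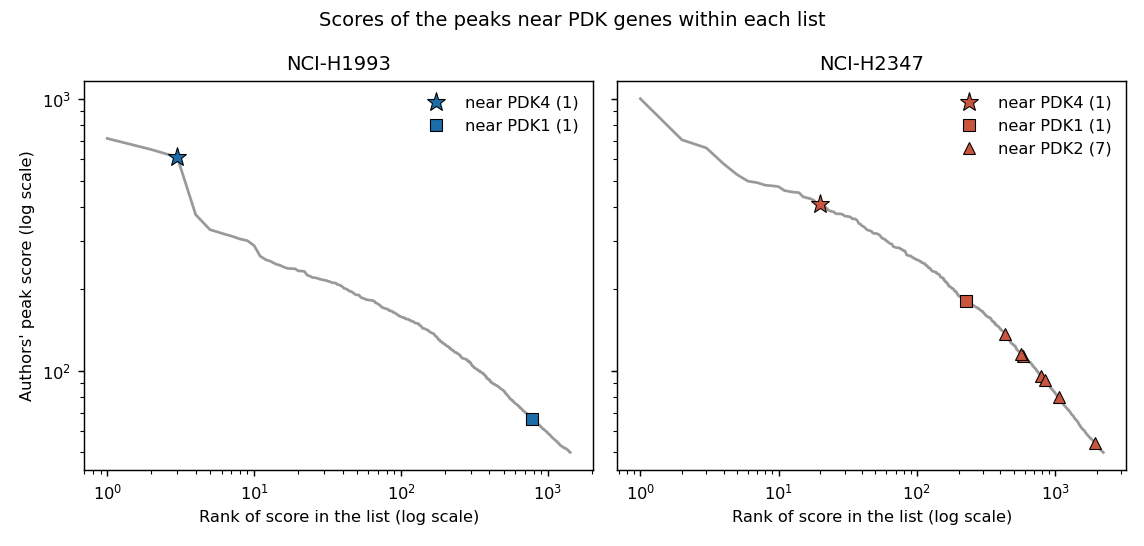
Authors' peak score against rank for NCI-H1993 (left) and NCI-H2347 (right), both axes on a log scale; the grey line is the whole list and symbols are the peaks near PDK4, PDK1 and PDK2. The PDK4 peak stands at rank 3 in NCI-H1993 and rank 20 in NCI-H2347, and the other symbols lie lower in each list.

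The PDK4 peaks of the lines covered nearly the same bases. They overlapped by 1148 bp, which is 82.7% of the NCI-H1993 peak and 99.1% of the NCI-H2347 peak. Their ends nearer to PDK4 were 11 bp apart and their far ends 240 bp apart, so the NCI-H1993 peak reached further from the gene. The midpoints were 125.5 bp apart, against a median of 76.3 bp over the 486 NCI-H1993 peaks with an overlapping NCI-H2347 peak. Among those 486 pairs, the PDK4 pair had the best rank when each pair was placed by the poorer of its percentile ranks. Overlap by at least 1 bp was found for 34.2% of all NCI-H1993 peaks and 21.7% of all NCI-H2347 peaks. In the top 10% by score it was found for 63.1% of NCI-H1993 peaks and 53.2% of NCI-H2347 peaks, so sharing by itself was common at this rank.

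The PDK4 site stood alone. The next peak of the same list was 1028 kb away in NCI-H1993 and 799 kb away in NCI-H2347, midpoint to midpoint. Over the whole lists the median gap was 265.4 kb for NCI-H1993 and 140.1 kb for NCI-H2347. A gap at least as long was found for 22.6% of NCI-H1993 peaks and 17.3% of NCI-H2347 peaks, so the isolation was not rare. On the upstream side, past the site, the next peak was 2.49 Mb from PDK4 in NCI-H1993 and 2.82 Mb in NCI-H2347. In the RefSeq gene order of GRCh38, DYNC1I1, which encodes a dynein intermediate chain, is the next protein-coding gene upstream of PDK4, and ASB4 is the next one downstream. The peak lies on the DYNC1I1 side, and a peak near a gene does not show that the gene is regulated from it.

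For scale, the chromosomes were divided into consecutive windows as long as each gene's own window, from the first to the last peak of either list. A window of 214 kb, as for PDK4, held at least 1 peak in 8.67% of cases in NCI-H1993 and in 12.3% of cases in NCI-H2347. Such a window held a shared peak in 3.36% of cases in each line. These windows include gene-poor and unassembled stretches and were not matched to gene content, so the figures describe the lists and are not a test of the PDK genes.

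No peak reached the start of PDK4 itself. The 12 kb were counted from the end of the rounded hg19 span. The 250 bases that precede the RefSeq start of PDK4 are shown for context, 5′ to 3′ on the minus strand, at chr7:95596517-95596766 of GRCh38.p14. These positions are on another build than the peaks and cannot be set against them. No letters are in capitals because neither motif searched was found.
PDK4: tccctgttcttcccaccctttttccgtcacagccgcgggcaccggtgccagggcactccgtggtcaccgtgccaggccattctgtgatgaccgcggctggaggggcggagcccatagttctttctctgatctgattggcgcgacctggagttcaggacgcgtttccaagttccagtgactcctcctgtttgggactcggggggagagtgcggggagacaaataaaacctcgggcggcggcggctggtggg

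The full RefSeq promoter windows, from 250 bases before to 50 bases after a start, were searched on both strands for the half-site AGGTCA and for its direct repeat with 1 base between, the DR1 element. All 4 genes had an entry, with 7 windows in all because PDK1 and PDK2 have several starts. The half-site was found in 0 of the 7 and the direct repeat in 0 of the 7, while 13.8% and 0.0228% of all 35116 promoter windows held them. This says only that these letters are not in these windows. The sequence under the peaks was not used here.

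PDK1 also had 1 peak in each line within 100 kb, again at the same place in both, but not among the top scores. PDK1 lies on the plus strand of chromosome 2, and the span used here runs from 173420 kb to 173464 kb. The peak lay 85 kb past the start and 41 kb past the end of that span. In NCI-H1993 the peak was at chr2:173504449-173505057, with a width of 609 bp and a score of 66.5. In NCI-H2347 it was at chr2:173504287-173505220, with a width of 934 bp and a score of 180. The NCI-H1993 score ranked 785 of 1419, below the median of its list, and the NCI-H2347 score ranked 225 of 2225, just outside the top 10%. Of the NCI-H1993 list, 23.8% scored at least 100, and the PDK1 peak did not.

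The NCI-H1993 peak at PDK1 lay wholly inside the NCI-H2347 peak, of which it covered 65.2%. The midpoints were 0.5 bp apart, and no other of the 486 pairs had midpoints closer. The RefSeq span of PDK1 on GRCh38 is 168.9 kb long, against 44 kb for the span used here. The site lay 85 kb past the start, a shorter distance than the RefSeq length, so it may fall inside the longer transcripts. This was not determined, because the RefSeq span was not placed on hg19. The next protein-coding gene downstream is RAPGEF4, an exchange factor for Rap GTPases.

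A further site lay just beyond the limit of 100 kb, 117 kb upstream of PDK1. It too was shared. The NCI-H1993 peak, at chr2:173302833-173303195, scored 70.1, and the NCI-H2347 peak, at chr2:173302512-173303545, scored 157. The NCI-H1993 peak was 363 bp wide and lay wholly inside the NCI-H2347 peak of 1034 bp, and the midpoints were 14.5 bp apart. The ranks were 704 of 1419 in NCI-H1993 and 331 of 2225 in NCI-H2347. The downstream site ranked 785 and 225, so the upstream site ranked higher in NCI-H1993 and lower in NCI-H2347. ITGA6, which encodes the integrin alpha 6 subunit, is the next protein-coding gene on that side. It was not determined whether this site lies inside ITGA6, since no hg19 position of ITGA6 was used. Distance alone does not tie the site to PDK1. Downstream of the pair, the next peak was 7.92 Mb from PDK1 in NCI-H1993 and 6.27 Mb in NCI-H2347. A window as long as that of PDK1, 244 kb, held at least 1 peak in 9.71% of cases in NCI-H1993 and 13.8% in NCI-H2347, and a shared peak in 3.75% of cases in each.

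**Figure D2:**
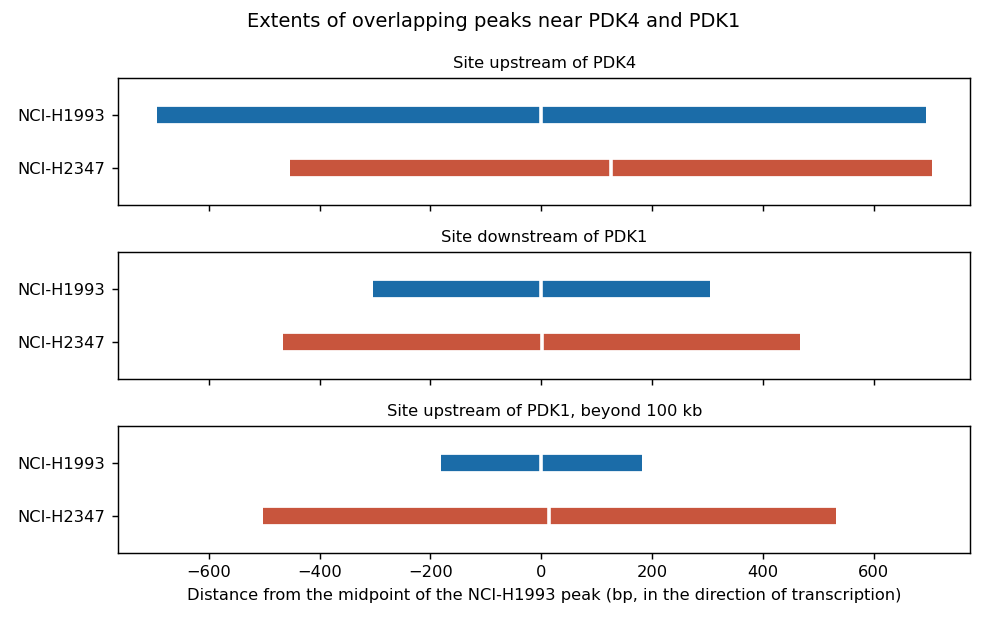
Extents of the overlapping peaks near PDK4 and PDK1 in base pairs from the midpoint of the NCI-H1993 peak, with NCI-H1993 above and NCI-H2347 below; white ticks mark midpoints. At PDK4 the NCI-H1993 peak is the wider one (1388 and 1159 bp), and at both PDK1 sites it lies inside the NCI-H2347 peak.

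PDK2 differed from the other members in its count, with 0 peaks listed for NCI-H1993 and 7 for NCI-H2347. PDK2 lies on the plus strand of chromosome 17, between 48172 kb and 48189 kb. Of the 7 peaks, 1 lay inside the gene, 5 upstream and 1 downstream. An NCI-H1993 peak overlapped 0 of the 7, against 21.7% of the whole NCI-H2347 list. That follows from the 0 NCI-H1993 peaks near the gene and is not a separate result. The nearest NCI-H1993 peaks lay 207 kb upstream, with a score of 62.5, and 550 kb downstream, with a score of 137. In NCI-H2347 the nearest peaks beyond 100 kb lay 306 kb upstream, with a score of 58.7, and 312 kb downstream, with a score of 78.9. The lists do not show signal that stayed under the calling threshold.

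The peak inside PDK2 was at chr17:48179178-48180124, 8 kb past the start, with a score of 92.2 in NCI-H2347. It ranked 844 of 2225 and was the widest of the 7 at 947 bp. The downstream peak, at chr17:48248192-48248900, was 60 kb past the end of the gene and had a score of 115. The farthest upstream peak, at chr17:48105370-48106189, was 66 kb before the start and had the highest score near PDK2, 136, with rank 430.

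The other upstream peaks lay closer together. A peak at chr17:48128023-48128707, 44 kb before the start, had a score of 95.6. The lowest score of the 7, 54.2, belonged to chr17:48138138-48138830, 34 kb before the start, which ranked 1922 of 2225. Its neighbours at chr17:48140687-48141534 and chr17:48141885-48142667, 31 kb and 30 kb before the start, had scores of 79.8 and 113. These last 3 peaks followed each other at 2.6 kb and 1.2 kb, midpoint to midpoint, while the other neighbouring peaks were 10.1 to 68.9 kb apart.

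The scores near PDK2 lay mostly above the middle of the NCI-H2347 list, but below its top scores. Their median was 95.6, against 77.1 for the list, and 6 of 7 were above the list's median. Scores of at least 100 were found for 3 of the 7, against 33.0% of the list, and none reached the top 10%. Their median width of 783 bp was below the list's median of 832 bp.

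The number of NCI-H2347 peaks in the PDK2 window was high for a window of its length. The windows used for scale had fixed borders, whereas the PDK2 window was centred on the gene. A fixed border can split a group of peaks, so the comparison is not like for like. Among 13251 windows of the same length, 217 kb, 12.4% held at least 1 NCI-H2347 peak, 3.37% held a shared peak in each line and 0.0226%, or 3 windows, held at least 7 NCI-H2347 peaks. Those 3 windows were on chromosomes 1, 12 and 17 and also held 1, 2 and 4 NCI-H1993 peaks. The peaks near PDK2 were split between neighbouring windows, so they are not among the 3. With the window borders moved, which was tried after the data had been seen, 2 of 13250 windows held at least 7. Of these, 1 was the window over PDK2, with its 7 peaks and 0 of NCI-H1993. The other was on chromosome 17 too, which held 150 NCI-H2347 peaks and 64 NCI-H1993 peaks in all. The shares of windows were not computed for chromosome 17 alone. In NCI-H1993, 8.79% of these windows held at least 1 peak, so the absence of peaks near PDK2 in that line was the usual state.

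**Figure D3:**
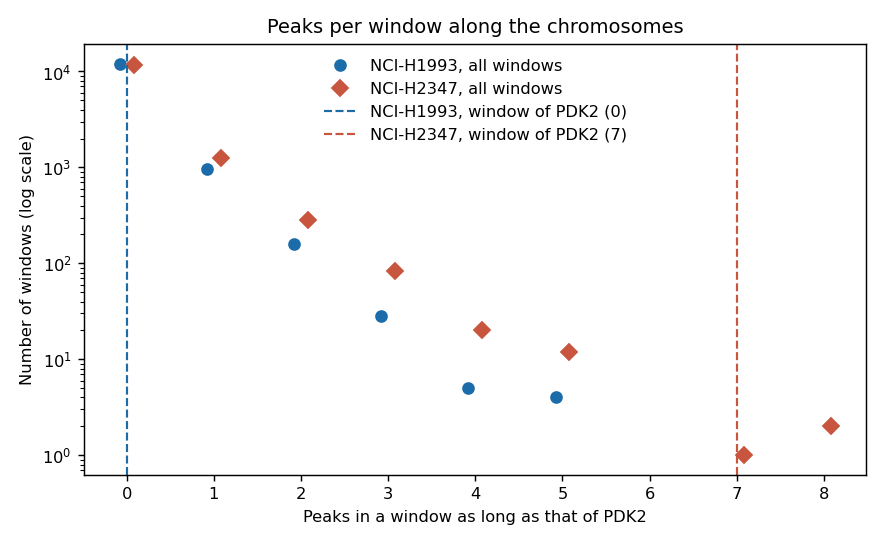
Number of windows of 217 kb along the chromosomes (log scale) by the number of peaks they hold, for NCI-H1993 (circles) and NCI-H2347 (diamonds); dashed lines give the count in the PDK2 window. The PDK2 window holds 0 peaks in NCI-H1993, as do most windows, and 7 in NCI-H2347. A count of at least 7 was reached by 3 of 13251 windows. The counted windows have fixed borders that split the peaks near PDK2, so the PDK2 window is not one of them.

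The peaks upstream of PDK2 lie on the side of ITGA3, which encodes the integrin alpha 3 subunit and is the next protein-coding gene there. Whether any of these upstream peaks lies inside ITGA3 was not determined, since no hg19 position of ITGA3 was used. Distance alone does not tie these peaks to PDK2, and the count of 7 need not be a trait of PDK2. In the RefSeq table, SAMD14 overlaps PDK2, and PPP1R9B is the next gene downstream. Whether the peak inside PDK2 also falls in SAMD14 was not determined.

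PDK3 had 0 peaks within 100 kb in NCI-H1993 and 0 in NCI-H2347, and the nearest peaks lay megabases away. PDK3 lies on the plus strand of the X chromosome, between 24483 kb and 24553 kb. In NCI-H1993 the nearest peak was 11.4 Mb upstream, at chrX:13119685-13120234 with a score of 51.3. In NCI-H2347 it was 2.34 Mb upstream, at chrX:22142174-22142940 with a score of 56.0. Downstream, the next peak was 16.3 Mb away in NCI-H1993 and 13.3 Mb away in NCI-H2347. PDK3 thus lay in a stretch of 27.7 Mb without an NCI-H1993 peak and of 15.7 Mb without an NCI-H2347 peak. The X chromosome held 26 peaks in NCI-H1993, or 1.83% of the list, and 45 in NCI-H2347, or 2.02%. Over all chromosomes, a window as long as that of PDK3, 270 kb, held at least 1 peak in 10.6% of cases in NCI-H1993. In NCI-H2347 the share was 15.0%, so an empty window was the usual state in both lines. These shares were not computed for the X chromosome alone.

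**Figure D4:**
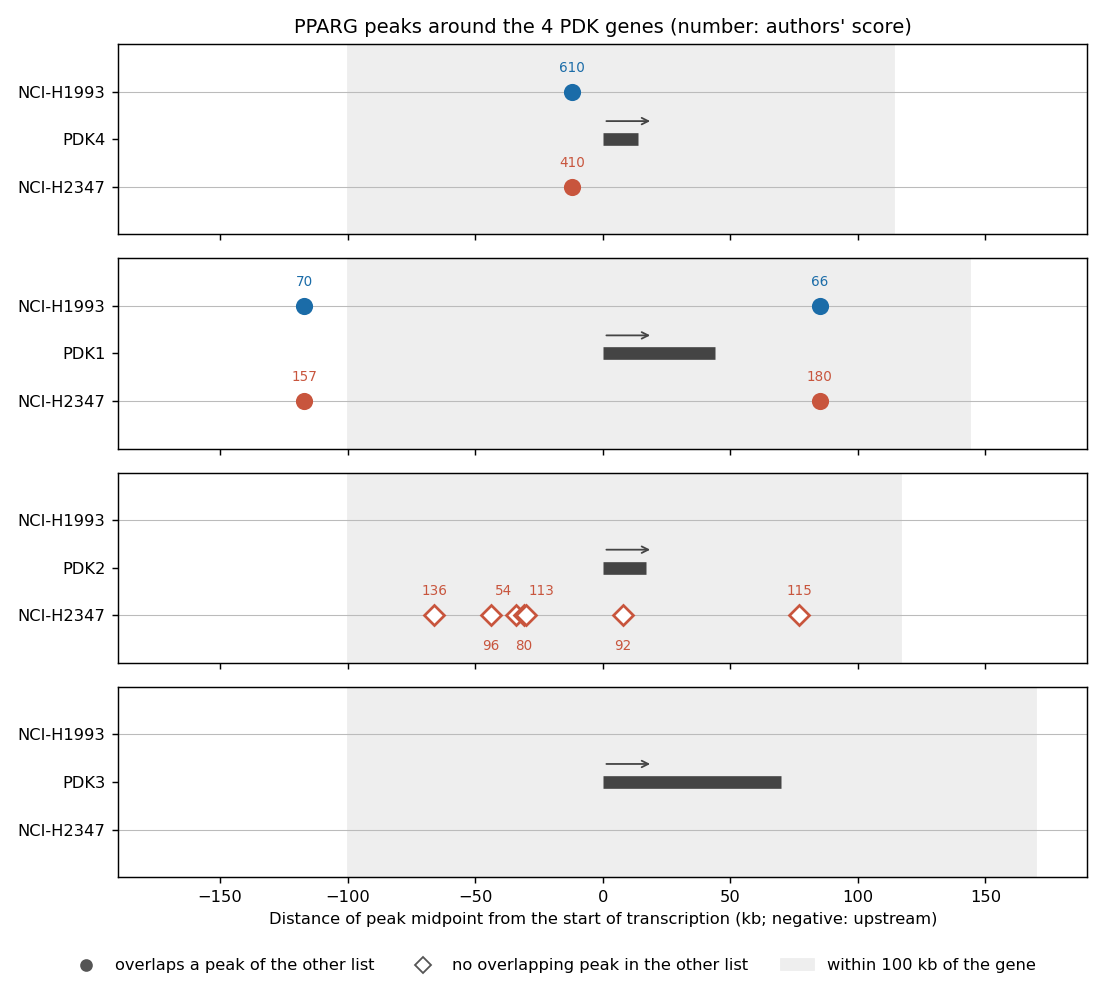
Positions of PPARG peak midpoints in kb from the start of transcription of each gene, with NCI-H1993 above and NCI-H2347 below the gene (dark bar); numbers are the authors' scores, filled circles overlap a peak of the other list, open diamonds do not, and grey marks 100 kb around the gene. PDK4 and PDK1 have shared sites, PDK2 has 0 peaks in NCI-H1993 and 7 in NCI-H2347, and PDK3 has 0 in both.

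All 11 peaks amount to 9 places in the genome, of which 2 were occupied in both lists. With the spans used here, the peak inside PDK2 was the only one of the 11 within a PDK gene. For PDK1 the longer RefSeq span was not placed on hg19, and it may hold the site called downstream here.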

How the data were processed

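PPARG ChIP-seq was analysed in 1 NCI-H1993 and 1 NCI-H2347 library; the deposited lists hold position, name and score of each peak. Peaks were called with MACS 1.4.2 on hg19, per the submitters' processing notes. The score was deposited by the authors as the value of each peak, and the lowest was 50.03 for NCI-H1993 and 50.05 for NCI-H2347. Aligner, filters, threshold and use of the input are not given in the sources used here. Read depth is unknown, so binding strength was not compared between lines.

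Starts were made 1-based. The members and lists were chosen with earlier results of these data known. Peaks to be named were all those within 100 kb and the nearest beyond on each side; the nearest shared site to PDK2 was added after its values were seen. Sharing meant overlap by at least 1 bp. Gene spans on hg19 came with the choice of members; strand, gene order and promoter sequence came from RefSeq on GRCh38.p14. Other pyruvate dehydrogenase pathway genes were not analysed here, since no hg19 gene positions were used. The code recovered all peaks planted in simulated lists, where every planted peak lay inside a window and shared peaks were planted to overlap. This checked the code only, and unshared peaks planted near the genes were not checked for false sharing. The work used matplotlib 3.10.9, pandas 2.3.3, scipy 1.17.1 and numpy 2.4.6 under Python 3.11.15.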

Additional observations from a re-analysis of the deposited data

How the results depend on the processing

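With a score of at least 100 in place of all peaks, 1 NCI-H1993 peak and 5 NCI-H2347 peaks lay near the PDK genes, against 2 and 9, and 1 peak of each list was shared, against 2, because the NCI-H1993 peak at PDK1 scored lower; PDK2 kept 3 of its 7 peaks. Ranked among peaks of its chromosome alone, the PDK4 peak stood at the top 0.971% in NCI-H1993 and the top 1.80% in NCI-H2347, against 0.211% and 0.899% of the whole lists, since fewer peaks were ranked. With windows of 50 kb and 200 kb, the counts were 2 and 3 in NCI-H1993 and 7 and 10 in NCI-H2347. With only as many top-scoring NCI-H2347 peaks as NCI-H1993 has in all, 8 of its 9 peaks were left. The number of shared peaks near the genes was 2 in each list with 50% reciprocal overlap, with midpoints within 250 bp and with a gap of up to 500 bp. Counting any base in the window changed no count near the genes. Leaving out peaks wider than 2500 bp and contig peaks left the recomputed ranks within their 95% Wilson intervals. Moving the borders of the genome windows left the shares of windows with a peak within theirs. The intervals served only as limits for calling a value changed and measure no variation between libraries. Both alternatives used nearly the same peaks, so little change was possible. The number of windows with at least 7 NCI-H2347 peaks was 2 with moved borders, an alternative added after the data had been seen, against 3. No paired analysis was possible because each line has a single ChIP library. With read depth unknown, a gene without a peak cannot be read as unbound.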

Other observations

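The shared site nearest to PDK2, singled out after its values were seen, lay 550 kb downstream of the gene, at chr17:48738807-48739569 for NCI-H1993 and at chr17:48738667-48739765 for NCI-H2347. Its score of 137 ranked 167 of 1419 in NCI-H1993, and its score of 492 ranked 7 of 2225 in NCI-H2347. It was 763 bp wide in NCI-H1993 and 1099 bp wide in NCI-H2347.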
